A study of Saccharomyces cerevisiae with 5 samples.

Results

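The antisense strand of the 35S rRNA gene was examined by counting RNA 3′ ends on the strand opposite to the 35S transcript. Its members were all 6858 nt of the gene (chromosome XII 460712 to 467569), taken as 7 regions and as 69 windows of 100 nt, out of the 18274 nucleotides of both strands of the rDNA repeat in the deposited files. Counts came from native elongating transcript sequencing (NET-seq) of budding yeast, Saccharomyces cerevisiae, in which the RNA held by RNA polymerase I is purified with the enzyme and its 3′ end is mapped. There were 2 rpa190-F1205H libraries, with a substitution in the largest polymerase I subunit, and 3 WT libraries. Both genotypes were grown in rich medium (YEPD), and in both the polymerase was pulled down through an HA and histidine tag on the C terminus of Rpa135, the second-largest subunit. Both mutant files carry WT in their sample column, and their titles spell the substitution otherwise than the genotype label does. The RPA190 gene was not measured, which left the labels with no check in these counts. The genome build is not given in the sources used here, and the region bounds equal those of the RefSeq assembly R64.

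RNA polymerase I reads the tandem rDNA repeats in one direction into a long precursor, the 35S rRNA, with transcribed spacers (5′ ETS, ITS1, ITS2 and 3′ ETS) between and around the mature 18S, 5.8S and 25S rRNAs. The 5S gene lies in the intergenic spacer of the same repeat, is read from the opposite strand and is made by RNA polymerase III. RNA polymerase II can also make noncoding transcripts of the spacer in either direction, from promoters that the deacetylase Sir2 keeps silent. An antisense RNA of the 35S gene would be read from the 3′ ETS towards the 5′ ETS, so that the base after an antisense end is the one at the next lower position of the gene.

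The sequences at the antisense ends shared a short pattern in both genotypes, and 11 of the 18 positions with the highest shares are shown for that reason. Each is the antisense RNA sequence 5′ to 3′, the complement of the letters in the deposited files, with 12 nt on either side of the last base. Capitals mark the last base at the counted 3′ end and the 3 bases that would have come next. The CUC positions shown are a part of those listed, so their last bases are no comparison of the genotypes. In the mutant list, the CUC positions not shown ended in U (nt 106 and nt 3587), G (nt 4920) and A (nt 5505). In the WT list they ended in U (nt 183) and A (nt 3644 and nt 4033). The first 4 are followed by CUC and were among the 10 highest positions of the mutant, and nt 1217 was in the WT list as well.
nt 3276 (25S, chrXII:464282-464306, plus strand): aguucagcggguACUCcuaccugau
nt 2724 (ITS1, chrXII:464834-464858, plus strand): aaagauaugaaaACUCcacagugug
nt 3913 (25S, chrXII:463645-463669, plus strand): cauagacguuagACUCcuugguccg
nt 1217 (18S, chrXII:466341-466365, plus strand): uauuuacauuguACUCauuccaauu
The next 3 were among the 10 highest of WT and are followed by CUC as well.
nt 104 (5′ ETS, chrXII:467454-467478, plus strand): accuagcgacucUCUCcaccguuug
nt 1162 (18S, chrXII:466396-466420, plus strand): uuauugucacuaCCUCccugaauua
nt 3589 (25S, chrXII:463969-463993, plus strand): guucgcuaucggUCUCucgccaaua
The last 4 are the positions among the 18 without CUC.
nt 3013 (5.8S, chrXII:464545-464569, plus strand): agaaggaaaugaCGCUcaaacaggc
nt 3024 (ITS2, chrXII:464534-464558, plus strand): cagaauguuugaGAAGgaaaugacg
nt 3427 (25S, chrXII:464131-464155, plus strand): auagacaaggaaCGGCcccaaaguu
nt 3836 (25S, chrXII:463722-463746, plus strand): cgcaguccucagUCCCagcuggcag

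Antisense ends were rare in every library. The mutant libraries held 2221 and 325 antisense ends, against 382, 249 and 286 in WT. Sense ends of the 35S gene numbered 1861226 and 301306 in the mutant libraries, against 519517, 445251 and 465427 in WT. There was thus 1 antisense end for every 838 and 927 sense ends in the mutant, and 1 for every 1360, 1788 and 1627 in WT. The deepest library, mutant library 1, supplied most antisense counts, so positions and windows were compared as shares or through the sense totals.

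Set against sense 35S ends, antisense ends made up 0.119% and 0.108% in the mutant libraries, against 0.0735%, 0.0559% and 0.0614% in WT. The 95% exact binomial intervals were 0.114 to 0.124% and 0.0964 to 0.120% in the mutant, and 0.0663 to 0.0813%, 0.0492 to 0.0633% and 0.0545 to 0.0690% in WT, covering counting error only. Neither the shares nor their intervals overlapped between genotypes. The mean share was 0.114 ± 0.00811% in the mutant (SD, n = 2) and 0.0636 ± 0.00900% in WT (SD, n = 3), a ratio of 1.79. The two-sided exact permutation test gave p = 0.2, the smallest that 10 splits of 2 against 3 libraries allow, so no value compared by this test can reach the 0.05 threshold.

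**Figure D1:**
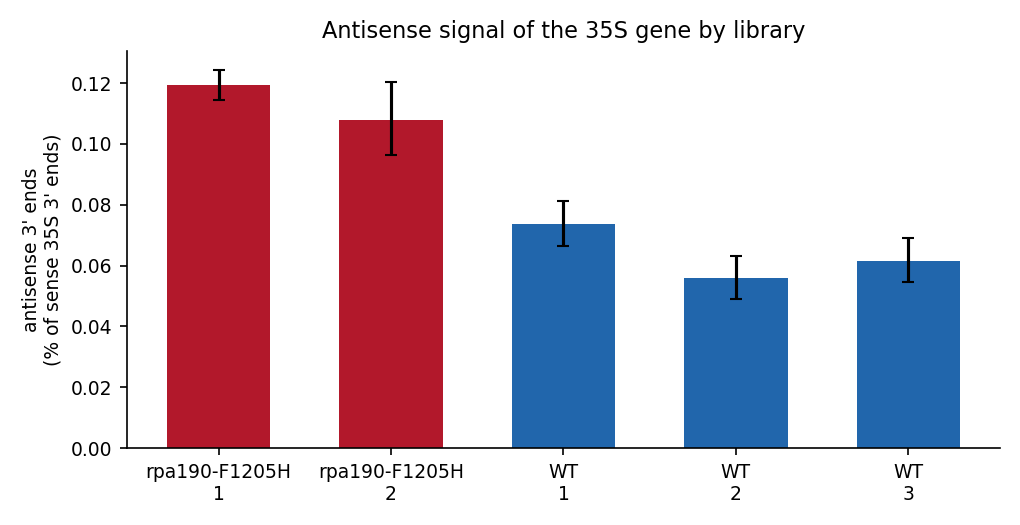
Antisense 3′ ends of the 35S gene as a percentage of sense 35S 3′ ends (y axis) in each library (x axis). Bars are single libraries with 95% exact binomial intervals; the 2 rpa190-F1205H libraries, at 0.119 and 0.108%, lie above the 3 WT libraries, at 0.0559 to 0.0735%.

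The size and the direction of this difference depended on which ends the antisense counts were set against. Without the sense ends within 5 nt of the last nucleotides of 18S, 5.8S and 25S, which can be finished rRNA, the share averaged 0.133% in the mutant and 0.0970% in WT, a ratio of 1.37. Against sense ends of the 4 transcribed spacers alone, again leaving out nucleotides near the mature 3′ ends, the order turned round, with 0.830% in the mutant and 1.41% in WT. Against the 5S ends, which lie on the same strand as the antisense ends, the ratio was larger, with 4.08% in the mutant and 1.14% in WT. The 5S ends numbered 48296 and 9128 in the mutant libraries, against 27341, 23785 and 29209 in WT. Which of these denominators is the right one for antisense RNA was not tested.

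Most positions of the strand carried no end. In the 5 libraries together, 4927 of 6858 nt had no antisense end, 1500 had one in 1 library, 309 in 2, 83 in 3, 33 in 4 and 6 in all 5. The mutant libraries had antisense ends at 1435 and 291 positions, of which 1050 and 260 carried a single count. WT libraries had them at 328, 217 and 258 positions, of which 286, 192 and 238 carried a single count. No position held more than 16 and 3 counts in the mutant libraries, or 6, 4 and 5 in WT. The 10 highest positions of each library held 6.19 ± 1.25% of its antisense ends in the mutant (SD, n = 2) and 9.67 ± 1.24% in WT (SD, n = 3; exact permutation p = 0.2), a share that falls as counts increase. At an equal 249 ends per library, the ends fell on 228.6 ± 0.137 distinct positions in the mutant and 222.7 ± 5.12 in WT (exact permutation p = 0.2). The antisense signal was therefore spread thinly along the gene in both genotypes. The mutant libraries shared 147 positions with an antisense end, 10.2% of those in library 1 and 50.5% of those in library 2.

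The base that would have come next was a cytosine for most antisense ends. It was C for 54.2 and 58.5% of ends in the mutant libraries, against 57.3, 55.4 and 52.4% in WT, while 26.3% of all antisense positions of the gene are followed by C. At the third base past the end, C again exceeded its share of positions, with 42.2 and 45.5% in the mutant libraries and 46.1, 49.4 and 42.0% in WT. Between them, U stood at the second base after 40.7 and 41.8% of ends in the mutant libraries and 41.4, 46.6 and 43.7% in WT, against 27.0% of positions. Further on, C stayed above its 26.4% share of positions in all 5 libraries, with 27.6 to 37.4% at 4 nt and 29.7 to 33.2% at 5 nt. The genotypes overlapped at each of these bases (for the next base, exact permutation p = 0.8).

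**Figure D2:**
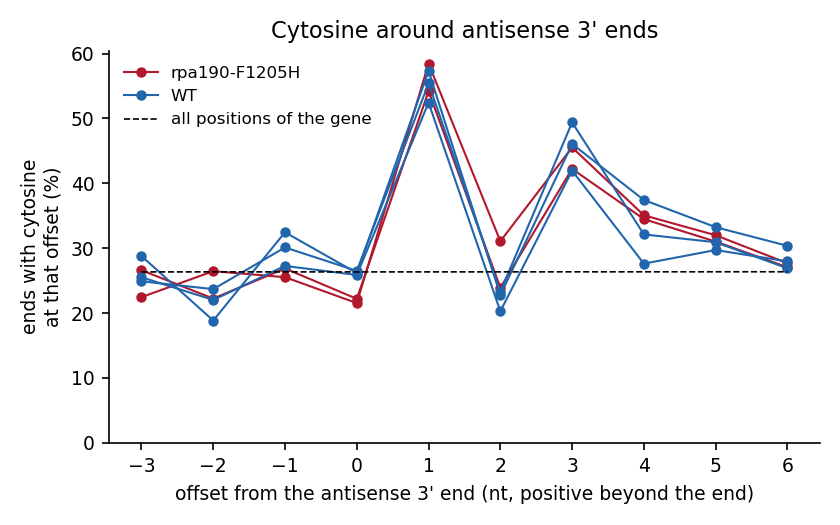
Share of antisense 3′ ends with a cytosine at each place around the end (y axis, percent) against the distance from the last base in nt (x axis, positive values beyond the end), with a line for each library and a dashed line for the share of all positions. In all 5 libraries cytosine stood above its 26.3% share of positions at 1 nt, with 52.4 to 58.5%, and at 3 nt, with 42.0 to 49.4%. It was also above its share, by less, at 4 nt, with 27.6 to 37.4%, and at 5 nt, with 29.7 to 33.2%.

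The pattern CUC was not planned and was taken from the bases seen after these same ends, so its excess at them is a description and no test. It was searched directly after the end in the antisense sequence at every position of the gene, overlapping matches included. It stood at 135 of 6858 positions (1.97%). These positions held 389 of 2221 and 61 of 325 antisense ends in the mutant libraries, against 71 of 382, 54 of 249 and 43 of 286 in WT. That is 17.5 and 18.8% of the ends in the mutant, and 18.6, 21.7 and 15.0% in WT. The means, 18.1 ± 0.887% in the mutant (SD, n = 2) and 18.4 ± 3.33% in WT (SD, n = 3), differed by less than the spread between libraries (exact permutation p = 1). Per position, CUC sites held 10.6 and 11.5 times as many ends as other positions in the mutant libraries, against 11.4, 13.8 and 8.81 times in WT. An antisense end was seen in some library at 117 of the 135 CUC positions (86.7%), against 1814 of the other 6723 (27.0%). The deposited counts are taken here as RNA 3′ ends. Whether those at CUC positions are ends of RNA in the cell or arose when the linker was joined and the cDNA was made was not tested.

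The sense strand did not share the pattern to this extent. CUC follows 67 sense positions (0.977%), and they held 2.10 ± 0.235% of sense ends in the mutant (SD, n = 2) and 1.90 ± 0.445% in WT (SD, n = 3; exact permutation p = 0.8). Leaving out the antisense ends followed by CUC, the antisense share of sense ends averaged 0.0930% in the mutant and 0.0520% in WT, a ratio of 1.79 as before.

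At single positions the counts were small. By mean share of antisense ends, the 10 highest positions of each genotype were 18 positions in all, of which 14 are followed by CUC (8 of 10 in the mutant and 7 of 10 in WT) and 2, nt 1217 and nt 3427, stood in both lists. At nt 2724 of the gene, in ITS1, the spacer between 18S and 5.8S, there were 16 and 2 antisense ends in the mutant libraries, against 2, 2 and 0 in WT. That position carried few sense ends as well, 22 and 3 in the mutant and 5, 1 and 1 in WT. The position with the highest mean share in the mutant, nt 3276 near the 5′ end of 25S, held 11 and 3 antisense ends in the mutant libraries, against 0, 1 and 1 in WT. In WT the highest was nt 3024 in ITS2, with 7 and 1 ends in the mutant libraries, against 1, 3 and 4 in WT. At nt 3913 in 25S the mutant libraries had 9 and 3 ends, against 0, 0 and 1 in WT. The shared positions had ends in both genotypes, with 8 and 2 in the mutant libraries and 0, 2 and 5 in WT at nt 1217 in 18S. The other, nt 3427 in 25S, had 11 and 2 in the mutant libraries and 3, 1 and 1 in WT. Mutant library 1 held more antisense ends than the other 4 libraries together, so its higher counts at these positions are no measure of a genotype difference, and no single position was tested.

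By region, the 3 longest regions held most antisense ends, each near its share of the gene's length. The 25S region, with 49.5% of the gene, held 1137 and 167 antisense ends in the mutant libraries, against 197, 142 and 154 in WT. That was 51.3 ± 0.135% of antisense ends in the mutant (SD, n = 2) and 54.1 ± 2.74% in WT (SD, n = 3). The 18S region, with 26.2% of the length, held 469 and 67 ends in the mutant libraries, against 89, 45 and 67 in WT, or 20.9 ± 0.354% in the mutant and 21.6 ± 3.05% in WT. The 5′ ETS, with 10.2% of the length, held 236 and 41 ends in the mutant and 55, 23 and 22 in WT, or 11.6 ± 1.41% in the mutant and 10.4 ± 3.51% in WT. Of the 3 largest regions, 25S alone had shares that did not overlap between genotypes (exact permutation p = 0.2).

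The small regions held few ends. ITS1 had 151 and 21 antisense ends in the mutant libraries, against 18, 13 and 19 in WT. The 5.8S region had 88 and 11 in the mutant and 8, 10 and 9 in WT, and ITS2 had 125 and 16 in the mutant and 14, 14 and 14 in WT. In the 3′ ETS, 15 and 2 ends were counted in the mutant libraries and 1, 2 and 1 in WT. Over the 7 regions, the exact permutation p-values for the share of antisense ends ran from 0.2 to 1, and none was under 0.84 after Benjamini-Hochberg adjustment. As a share of all sense 35S ends, each of the 7 regions was higher in both mutant libraries than in all 3 WT libraries. For 25S these shares averaged 0.0583 ± 0.00400% in the mutant (SD, n = 2) and 0.0343 ± 0.00319% in WT (SD, n = 3; exact permutation p = 0.2, the same for each region and after adjustment).

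Relative to the mean of the whole strand, antisense density was lowest in the 3′ ETS, at 0.210 ± 0.0138 in the mutant (SD, n = 2) and 0.153 ± 0.0944 in WT (SD, n = 3). It was highest in the mutant in 5.8S, at 1.59 ± 0.177 in the mutant and 1.34 ± 0.418 in WT, and highest in WT in ITS2, at 1.56 ± 0.147 in the mutant and 1.40 ± 0.292 in WT. Sense density varied far more, with 3.86 ± 0.0735 in the mutant and 8.48 ± 0.354 in WT for 5.8S, and with 0.356 ± 0.0290 in the mutant and 0.141 ± 0.00183 in WT for ITS1. In the 3′ ETS, sense density was low as well, at 0.168 ± 0.00590 in the mutant and 0.151 ± 0.00673 in WT. Across the 69 windows the rank correlation of antisense with sense counts was 0.27 and 0.23 in the mutant libraries, against -0.01, -0.10 and 0.13 in WT. Between pairs of libraries the rank correlation of antisense window counts was 0.50 to 0.69, so the antisense profile was shared between libraries although it did not follow the sense profile of its own library closely. These are descriptions over windows of the same gene, which share base composition and library depth.

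Along the gene, antisense density was highest in the nucleotides 3001 to 4000, which cover ITS2 and the first part of 25S. There it was 1.67 ± 0.0672 times the strand mean in the mutant (SD, n = 2) and 1.75 ± 0.230 times in WT (SD, n = 3). In nt 1 to 1000 the density was 0.871 ± 0.0521 in the mutant and 0.865 ± 0.257 in WT. In nt 6001 to 6858, the end of 25S and the 3′ ETS, it was 0.359 ± 0.0140 in the mutant and 0.335 ± 0.0507 in WT. The profile therefore had a broad top in the middle of the gene and its lowest stretch in nt 6001 to 6858. In these stretches the genotypes differed by less than the SD of WT. Whether antisense transcription enters from the spacer was not tested. In nt 2001 to 3000 they did not overlap, with 1.15 and 1.12 in the mutant libraries and 0.969, 0.992 and 1.08 in WT. The remaining stretches had 0.862 ± 0.0350 in the mutant and 0.845 ± 0.185 in WT (nt 1001 to 2000), 1.13 ± 0.103 in the mutant and 1.24 ± 0.150 in WT (nt 4001 to 5000), and 0.882 ± 0.0950 in the mutant and 0.860 ± 0.135 in WT (nt 5001 to 6000).

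**Figure D3:**
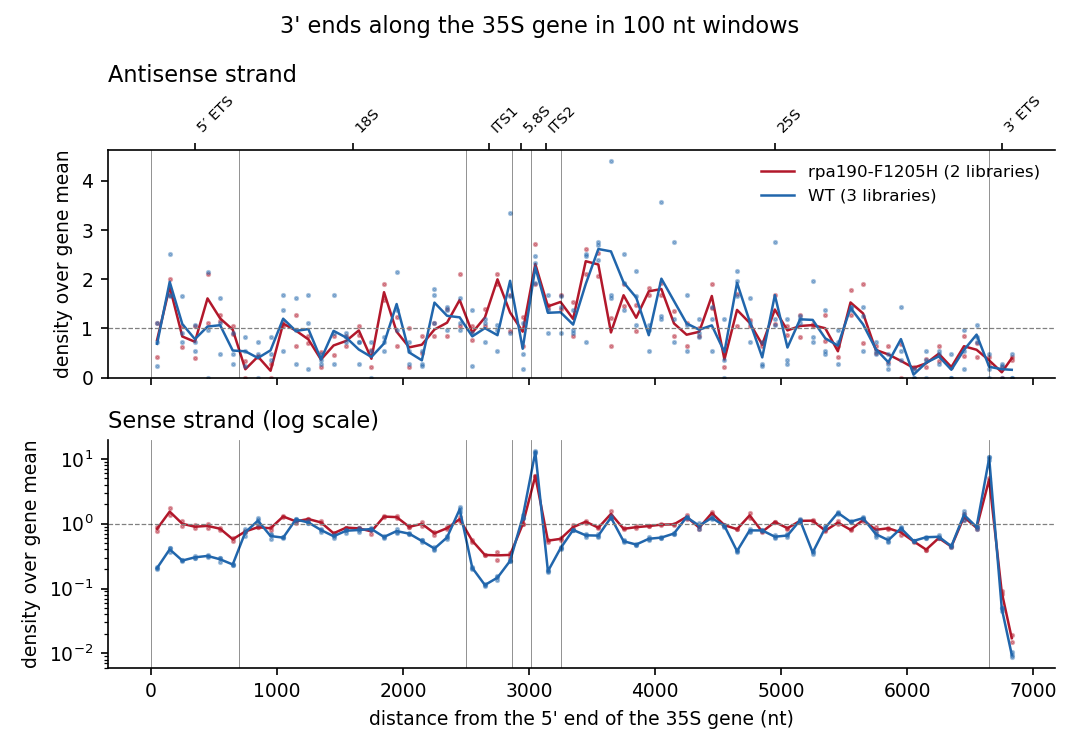
Density of antisense (top) and sense (bottom, log axis) 3′ ends in 100 nt windows, as a multiple of the mean of the strand (y axes), against the distance from the 5′ end of the 35S gene in nt (x axis); points are libraries, lines are the means of 2 rpa190-F1205H and 3 WT libraries, and vertical lines are region bounds. Antisense ends were densest around nt 3001 to 4000, at 1.67 times the strand mean in the mutant and 1.75 times in WT, and sparsest past nt 6001.

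Set against the sense ends of the same region, the ratios of the genotypes differed in direction between regions. In 5.8S, antisense ends were 0.0472 ± 0.00947% of the region's own sense ends in the mutant (SD, n = 2) and 0.00982 ± 0.00221% in WT (SD, n = 3). The 5′ ETS went the other way, with 0.138 ± 0.0217% in the mutant and 0.232 ± 0.108% in WT. Sense ends of the 5′ ETS were 9.61% of sense ends in the mutant and 2.94% in WT, and those of 5.8S were 8.89% in the mutant and 19.5% in WT. ITS1 had 0.402 ± 0.0104% in the mutant and 0.470 ± 0.0757% in WT, with overlapping libraries (exact permutation p = 0.6). In the other regions the mutant had the higher ratio, from 1.41 times WT in 18S to 2.29 times in the 3′ ETS. Apart from ITS1, each region gave an exact permutation p = 0.2, or 0.233 after adjustment over the 7.

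Windows of 100 nt were compared with edgeR's quasi-likelihood test, fitted on both strands of the whole repeat with the sense 35S total as library size. Of 69 antisense windows 67 reached the minimum of 10 counts over the 5 libraries, a minimum to which mutant library 1 contributes most, and 19 of them passed an adjusted p of 0.05 as higher in the mutant and 0 as lower. Among all 174 windows tested in the repeat, 40.2% were higher and 7.47% lower. The antisense share of higher windows, 28.4%, was thus below that of the repeat as a whole. Tested antisense windows held 10 to 127 ends over the 5 libraries, fewer than any sense window of the gene, which makes a call less likely. The lower share called is therefore no measure of a smaller rise. At an unadjusted p below 0.05 there were 21 antisense windows, none of them lower. The libraries of the genotypes did not overlap in 15 of the 19. That was also so in windows that were not called, such as nt 501 to 600 (edgeR adjusted p = 0.105). In 14 of the 19 the sense counts of the same window also passed the test as higher. Of all 69 sense windows of the gene, 39 passed as higher and 9 as lower. Both untested windows held few ends, with 6 and 1 in the mutant libraries and 1, 0 and 0 in WT at nt 6001 to 6100, and 7 and 0 in the mutant and 0, 1 and 1 in WT at nt 6701 to 6800.

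The median log2 fold change over the antisense windows was 0.84, against 0.37 over the 69 sense windows of the gene and 0.66 over all windows tested. Single estimates ran from -0.23 to 2.31, with 64 above 0 and 3 below. The highest, 2.31 ± 1.29 (SE; edgeR adjusted p = 0.133), was in nt 6801 to 6858. It rested on 8 and 1 ends in the mutant libraries and 0, 1 and 0 in WT. Higher windows were spread along the gene, with 3 of 7 in the 5′ ETS, 3 of 18 in 18S, 2 of 3 in ITS1 and 7 of 32 in 25S, and the remaining 4 in or at the edges of 5.8S and ITS2. In the 3′ ETS and the window across its border with 25S no window passed.

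Among windows past the threshold, the rise was largest in nt 1801 to 1900 in 18S (chromosome XII 465670 to 465769). This window had 51 and 9 antisense ends in the mutant libraries, against 3, 3 and 3 in WT, a log2 fold change of 2.11 ± 0.469 (SE; edgeR adjusted p = 0.000133). Ends followed by CUC were 26 and 2 of these in the mutant, against 0, 1 and 0 in WT, and without them the log2 fold change was 1.39 (edgeR adjusted p = 0.0413). The ITS1 window nt 2701 to 2800 (chromosome XII 464770 to 464869) had 68 and 9 ends in the mutant libraries, against 6, 2 and 4 in WT, a log2 fold change of 2.06 ± 0.415 (edgeR adjusted p = 3.16e-05). Both rises were also called with TMM or DESeq2 size factors, with the antisense total as library size and with the replicate block, but not by the DESeq2 test (adjusted p = 0.0943 for each) or against sense spacer ends. Without mutant library 1, which leaves 1 mutant library assumed to vary like the WT ones, nt 2701 to 2800 was no longer called (edgeR adjusted p = 0.0672). Over all 16 alternatives that kept these windows, the adjusted p ran from 2.43e-05 to 0.474 in nt 1801 to 1900 and from 4.32e-06 to 0.459 in nt 2701 to 2800.

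In 5.8S, the window nt 2901 to 3000 rose by a log2 fold change of 1.97 ± 0.566 (SE; edgeR adjusted p = 0.00305), with 40 and 3 ends in the mutant libraries and 1, 4 and 2 in WT. Its sense counts moved the other way, with a log2 fold change of -0.37 (edgeR adjusted p = 0.000101). The window nt 3901 to 4000 in 25S had 59 and 8 ends in the mutant libraries, against 6, 2 and 4 in WT (log2 fold change 1.86 ± 0.430, edgeR adjusted p = 0.000241). In the 5′ ETS, nt 601 to 700 had 29 and 5 ends in the mutant and 5, 1 and 2 in WT (log2 fold change 1.46 ± 0.573, edgeR adjusted p = 0.0311). Libraries without overlap between genotypes per sense end were a condition for naming these 5 windows, so that is no result about them. Among called windows with overlapping libraries, nt 2001 to 2100 in 18S had a log2 fold change of 1.63 ± 0.608 (edgeR adjusted p = 0.0236). It held 33 and 1 ends in the mutant libraries, against 3, 1 and 3 in WT.

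**Figure D4:**
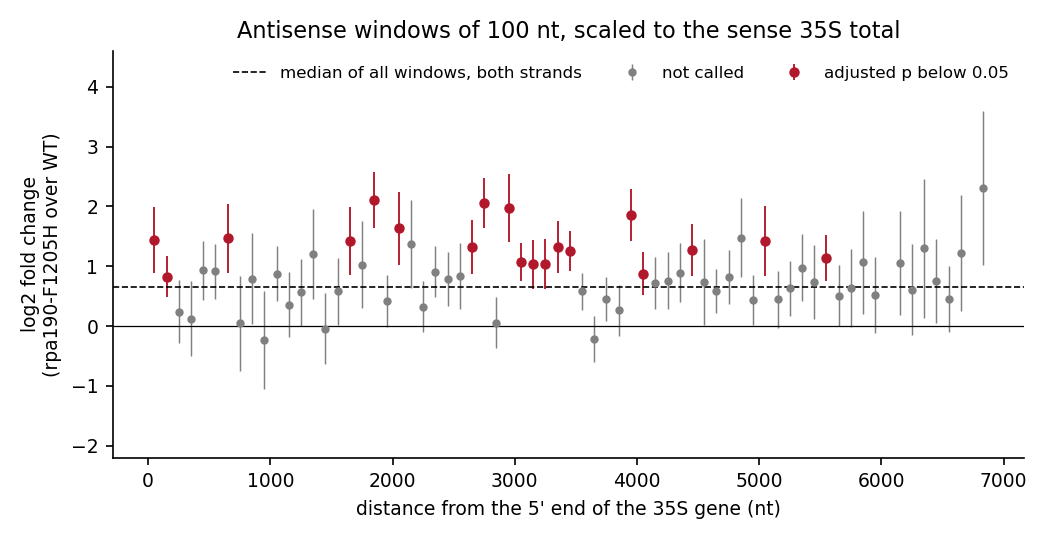
Log2 fold change of rpa190-F1205H over WT (y axis) for each of the 67 tested antisense windows against the distance from the 5′ end of the 35S gene in nt (x axis); points are edgeR estimates, lines are ± 1 SE, red marks the 19 windows with an adjusted p below 0.05, and the dashed line is the median of all windows of both strands, 0.66. Most antisense estimates lie above 0, with a range of -0.23 to 2.31. The highest, nt 6801 to 6858, rests on few ends and was not called.

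The windows that held most antisense ends did not all rise. In the mutant the highest share was in nt 3401 to 3500 of 25S, with 85 and 10 ends in the mutant libraries and 14, 9 and 3 in WT (log2 fold change 1.25 ± 0.339, edgeR adjusted p = 0.00162). In WT it was in nt 3501 to 3600, with 67 and 12 ends in the mutant and 15, 10 and 10 in WT (log2 fold change 0.58 ± 0.309, edgeR adjusted p = 0.119). The next window, nt 3601 to 3700, was second in WT and had 39 and 3 ends in the mutant and 9, 16 and 7 in WT, a log2 fold change of -0.22 ± 0.389 (edgeR adjusted p = 0.654). In nt 3001 to 3100, across the end of 5.8S and ITS2 and among the 5 highest in both genotypes, antisense ends numbered 88 and 9 in the mutant and 13, 9 and 8 in WT. There the antisense log2 fold change was 1.07 ± 0.311 (edgeR adjusted p = 0.00331) and the sense one was -1.23 ± 0.111 (edgeR adjusted p = 3.47e-14). The antisense rise there was not called with TMM factors (0.53, edgeR adjusted p = 0.213), with the replicate block (0.79, edgeR adjusted p = 0.137) or without mutant library 1 (0.50, edgeR adjusted p = 0.624), and against sense spacer ends the value was -0.58. Over all 16 alternatives its adjusted p ran from 0.000338 to 0.772.

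The count of 19 rested on the scaling and on the libraries. With TMM factors or with DESeq2 size factors, which centre on all windows, 3 antisense windows were higher, nt 1801 to 1900, nt 2701 to 2800 and nt 3901 to 4000. With the antisense total as library size, which compares only the distribution along the strand, nt 1801 to 1900 and nt 2701 to 2800 were higher and nt 3601 to 3700 was lower. Against sense spacer ends 0 were higher and 15 lower, and against 5S ends 60 were higher. Without mutant library 1 the count was 1, nt 1801 to 1900, without WT library 2 it was 12 and without WT library 3 it was 7. The antisense median exceeded that of all windows, which include the antisense ones, by 0.13 to 0.22 on the log2 scale under each of these scalings. That common median itself ran from -0.94 to 1.68. A scaling moves all windows by nearly the same amount, so the narrow range of the excess is no test of it. The excess was 0.10 without mutant library 1, 0.11 with the replicate block and 0.23 without WT library 1.

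Guanine was the last base of a larger share of antisense ends in the mutant libraries. It ended 15.4 and 14.8% of antisense RNAs in the mutant libraries (343 and 48 ends), against 7.59, 10.0 and 6.29% in WT (29, 25 and 18 ends), while 18.7% of antisense positions are G. The 95% exact binomial intervals were 14.0 to 17.0% and 11.1 to 19.1% in the mutant, and 5.14 to 10.7%, 6.60 to 14.5% and 3.77 to 9.76% in WT. The mean was 15.1 ± 0.477% in the mutant (SD, n = 2) and 7.98 ± 1.90% in WT (SD, n = 3), with libraries that did not overlap (exact permutation p = 0.2, or 0.267 after adjustment over the 4 bases). The other bases differed by less, with 21.9 ± 0.466% C in the mutant and 26.2 ± 0.316% in WT, 27.9 ± 1.95% A in the mutant and 30.0 ± 0.374% in WT, and 35.2 ± 1.01% U in the mutant and 35.8 ± 1.90% in WT.

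The share of G was higher in the mutant for ends with and without the CUC pattern. Among ends followed by CUC, G was the last base of 11.2 ± 1.95% in the mutant (SD, n = 2) and 2.48 ± 1.16% in WT (SD, n = 3). Among the others it was 16.0 ± 0.0982% in the mutant and 9.26 ± 2.41% in WT. At the base that would have come next, the libraries overlapped, with G at 15.0 ± 1.41% in the mutant and 15.4 ± 3.01% in WT. By region, 25S had 185 of 1137 and 26 of 167 ends in G in the mutant libraries, against 17 of 197, 12 of 142 and 11 of 154 in WT. The 18S region had 84 of 469 and 9 of 67 in the mutant, against 8 of 89, 5 of 45 and 2 of 67 in WT. ITS2 had 23 of 125 and 6 of 16 in the mutant and 2, 3 and 4 of 14 in WT, with overlapping libraries. There nt 3024 supplied 1, 3 and 4 of the WT ends in G, and without it the counts were 16 of 118 and 5 of 15 in the mutant and 1 of 13, 0 of 11 and 0 of 10 in WT.

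Sense and 5S ends had more G in the mutant as well. Sense ends of the 35S gene, those at mature 3′ ends included, were G in 20.8 ± 0.994% in the mutant (SD, n = 2) and 6.75 ± 0.396% in WT (SD, n = 3), at 26.3% of positions. In the 5′ ETS, which holds no mature 3′ end, sense ends were G in 23.0 ± 0.330% in the mutant and 9.67 ± 0.984% in WT. The 5S ends, RNA polymerase III products on the same strand as the antisense ends, were G in 28.6 and 26.1% in the mutant libraries, against 14.9, 14.0 and 15.0% in WT, at 28.7% of positions. For 5S the last 6 nt, which hold the mature 3′ end, were left out. The files list the 5S letters along the gene coordinate from what the annotation places as its 3′ end, so they were read in reverse. Read instead as the complement of the listed letters, G came to 26.7% in the mutant and 24.1% in WT. A lower share of G in WT was therefore measured on RNA of both strands and in a gene of another polymerase. For 5S the size of the difference depended on how the letters were read. The part of this lower share of G in the antisense result was not tested.

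**Figure D5:**
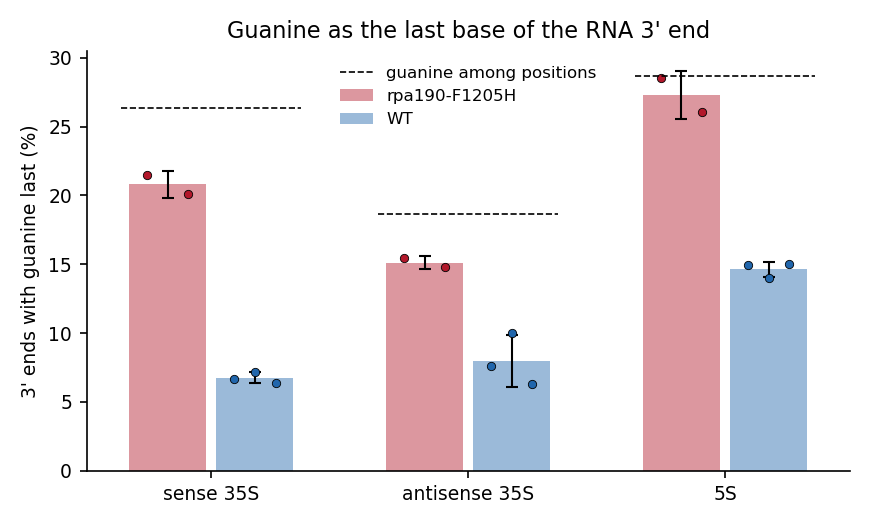
Share of 3′ ends with guanine as the last base (y axis, percent) for sense 35S, antisense 35S and 5S ends (x axis); bars are means with SD, points are libraries (2 rpa190-F1205H, 3 WT) and dashed lines are the share of positions that are G. The mutant libraries lie above the WT libraries for all 3 kinds of ends, with means of 15.1% in the mutant and 7.98% in WT for antisense ends. Ends at the mature 3′ end were left out for 5S but not for sense 35S. The listed 5S letters were read in reverse.

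The positions of highest sense signal held on average a larger share of antisense ends than of the gene's length. The WT average rested mostly on library 3. The top 69 of each library, 1% of the gene, held 2.43 and 2.46% of antisense ends in the mutant libraries, against 1.05, 1.61 and 4.20% in WT. The means were 2.45 ± 0.0214% in the mutant (SD, n = 2) and 2.28 ± 1.68% in WT (SD, n = 3; exact permutation p = 1 for the difference between genotypes). Without the 5 highest antisense positions the means were 2.50% in the mutant and 1.38% in WT. The top 5% of positions held 7.96% in the mutant and 6.27% in WT. Within 25 nt of each of the 6 ends of the mature rRNAs lay 0.0901 to 1.89% of antisense ends in the mutant on average and 0.204 to 2.23% in WT, with overlapping libraries at all 6 (exact permutation p from 0.4 to 1), while each such stretch is 0.744% of the gene. The share was largest in WT at the 5.8S 3′ end, with 1.58 ± 0.499% in the mutant and 2.23 ± 0.345% in WT.

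The intergenic spacers, which hold 2158 nt outside 5S, gave antisense ends a level for comparison. On the strand of the 35S antisense ends there, which the files call minus and which is the plus strand of chromosome XII, 378.6 and 52.4 ends per kb were counted in the mutant libraries, against 64.9, 43.1 and 67.2 in WT. The antisense strand of the 35S gene had 323.9 and 47.4 ends per kb in the mutant, against 55.7, 36.3 and 41.7 in WT. Its density was 0.880 ± 0.0351 times that of the spacer minus strand in the mutant (SD, n = 2) and 0.774 ± 0.133 times in WT (SD, n = 3), with overlapping libraries (exact permutation p = 0.4). These values rest on ends just past 5S. Within 50 nt of the mature 3′ end of 5S, on the 5S strand, lay 129 and 14 ends in the mutant libraries, against 58, 47 and 60 in WT. Without those 50 nt the order turned round, with density ratios of 0.992 and 1.01 in the mutant libraries, against 1.43, 1.66 and 1.03 in WT, which do not overlap (exact permutation p = 0.2). Each part of the spacer taken singly stood away from the mean level. Relative to the same strand of IGS1, the 915 nt between the end of the 35S gene and 5S, antisense density was 0.442 ± 0.0277 in the mutant and 0.368 ± 0.0616 in WT. Relative to IGS2, the 1243 nt on the other side of 5S, it was 3.30 ± 0.283 in the mutant and 4.68 ± 2.49 in WT. Leaving out the 50 nt next to 5S gave 0.501 ± 0.0166 in the mutant and 0.696 ± 0.137 in WT relative to IGS1. Against the other spacer strand, that of the 35S transcript, it was 1.60 ± 0.00876 times in the mutant and 1.29 ± 0.182 times in WT (exact permutation p = 0.2).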

How the data were processed

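The files deposited by the authors give a count of RNA 3′ ends per nucleotide and strand over a single rDNA repeat (9137 nt). The counts are whole numbers and were taken as not normalized. The submitters' processing notes name SAMtools 1.3.1, BWA 0.6, Trim Galore 0.4.1 and bcl2fastq 2.18.0.012. For the settings, the genome build, duplicates, molecular identifiers and reads shared between repeats, the processing is not given in the sources used here. Region bounds equal those of the RefSeq genes RDN37-2 and its parts. Reads cannot be assigned to a single repeat.

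Antisense counts were summed over regions, 100 nt windows and single positions in Python 3.11.15. The exact permutation tests of these values (two-sided, doubling the smaller tail) were written in Python as well, and SciPy 1.17.1 gave the exact binomial intervals. Windows of both strands of the repeat were tested with edgeR 4.0.16 in R 4.3.3 (quasi-likelihood, library size the sense 35S total, no TMM factors, sum of at least 10 counts, Benjamini-Hochberg threshold 0.05). Its code was tested on simulated data. The SE was approximated from the log2 fold change and the F statistic, as their quotient after taking the root of F. Alternatives included DESeq2 1.42.0. The strand of the files was checked at the 5S gene, whose highest minus-strand position, nt 7774 (chromosome XII 459796), is the annotated last nucleotide of RDN5-1 and held 67.6 to 80.8% of 5S counts.

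All 7 regions were named. So were the 5 windows with the largest rises or falls past the threshold without overlap between genotypes, and the 5 windows and 10 positions with the highest mean share of antisense ends in each genotype. Members, lists and tests were chosen with earlier results of these data known. The labels do not say whether libraries came from separate cultures, so p-values measure only the spread between these libraries, which may be technical.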

Additional observations from a re-analysis of the deposited data

How the results depend on the processing

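Over the settings tried, the antisense share of sense ends was higher in the mutant except against sense spacer ends, where the difference turned to -0.578 percentage points. Leaving out each library in turn gave differences of 0.0442 to 0.0557 percentage points. The number of higher antisense windows was 3 with TMM factors, 2 with the antisense total (1 lower), 3 with DESeq2 size factors, 0 with the DESeq2 test (0 at an unadjusted p below 0.05), 10 with filterByExpr, 0 with sense spacer ends (15 lower, and 21 at an unadjusted edgeR p below 0.05 in either direction), 60 with 5S ends, and 1 to 18 without 1 library. The cause of these changes was not tested, apart from filterByExpr, which left 17 antisense windows to test.

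Whether replicate numbers in the labels pair the libraries could not be settled from these counts. Deviations of libraries with the same number correlated at -0.16 for number 1 and -0.19 for number 2. With 2 mutant libraries, the deviations of library 1 are those of library 2 with the sign turned, so the check cannot show a lack of pairing. With the replicate block 2 windows were higher, the antisense share of sense ends differed by 0.0489 percentage points, and 4 differences changed sign, the share of the 5′ ETS to -0.197, of 18S to 0.181, of last base U to 0.112 and of ends near the 5.8S 5′ end to 0.354 percentage points.

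Small differences also changed sign elsewhere. In an alternative chosen after seeing the data, leaving out the 50 nt next to 5S turned the difference in density against the spacer strand of 5S to -0.376. Within 10 nt, ends near the 25S 5′ end gave -0.473 and near its 3′ end 0.0225 percentage points. The bases beside the last base were also counted, and these are different bases from the last one. At 1 base before the end, U gave 4.38, against -0.672 at the last base. At 1 base after the end, C gave 1.27 and G -0.428, against -4.32 and 7.13 at the last base. Without the 5 highest positions, CUC gave 0.161. Leaving out each library in turn gave ranges across 0 for the share of the 5′ ETS (-0.197 to 3.16), of 18S (-2.50 to 0.181), of last base U (-1.73 to 0.112), near the 18S 5′ end (-0.0576 to 0.204), the 5.8S 5′ end (-0.668 to 0.541) and the 25S 5′ end (-0.0168 to 0.926), at sense peaks (-0.455 to 1.12), and for C (-0.857 to 3.40) and CUC (-1.99 to 1.33) after the end. Last base G stayed between 6.29 and 8.16.

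Log2 fold changes that changed sign were, for nt 2801 to 2900, -0.48 with TMM factors, -0.80 with the antisense total, -0.54 with DESeq2 size factors and -0.39 with the DESeq2 test. With the antisense total, nt 101 to 200 gave -0.046, nt 3501 to 3600 -0.28 (-0.020 with DESeq2 size factors) and nt 4001 to 4100 -0.0058. Against sense spacer ends the values were -0.83 for nt 101 to 200, -0.18 for nt 601 to 700, -1.61 for nt 2801 to 2900, -0.58 for nt 3001 to 3100, -0.40 for nt 3401 to 3500, -1.09 for nt 3501 to 3600 and -0.78 for nt 4001 to 4100. Against 5S ends nt 3601 to 3700 gave 0.77. Leaving out each library gave -0.27 to 0.67 for nt 2801 to 2900 and -1.15 to 0.25 for nt 3601 to 3700.

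Counts limit the single positions, most of which held 1 end or none, and no difference between genotypes was tested at 1 position.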
